A study of Mus musculus with 6 samples.

Results

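The 9 genes described here encode receptors for cytokines that act on blood progenitors and were measured by bulk RNA-seq of AE9a leukemia cells: Kit, Flt3, Csf2rb, Csf2rb2, Csf2ra, Il3ra, Il6ra, Epor and Csf3r. They were chosen by name, from the 53618 named rows of the deposited table rather than by a rule on their values. Of these 9 genes, 6 passed the filter on low values (a normalized count of 10 or more in at least 3 libraries) that 12298 genes passed in all, and Flt3, Il6ra and Csf3r did not.

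The 6 libraries came from GFP+Lin-c-Kit+ splenocytes of C57BL/6 mice that had received Usp18+/f UBCER-Cre AE9a leukemia. AE9a is a truncated form of the AML1-ETO fusion protein, delivered here together with GFP by a retrovirus, and it drives acute myeloid leukemia in mice. Once sick, 3 mice received oil (labelled Usp18+/f) and 3 received tamoxifen (labelled Usp18+/Δ), and cells were taken 3 days after the first injection, with 1 library per mouse. Both groups therefore carried AE9a-GFP and the tamoxifen-activated Cre driven by the ubiquitin C promoter, and before the injections one floxed Usp18 allele. These libraries hold no group given tamoxifen without the floxed allele, so the drug and the deletion cannot be told apart. c-Kit protein was the sorting gate in both groups.

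The recovered reads numbered 19172471 to 23785143 per library. Usp18, the targeted gene, a negative regulator of interferon signaling that interferon itself induces, went against the labels, with a mean of 203 ± 22.8 normalized counts under the oil label and 363 ± 101 under the tamoxifen label (SD, n = 3 each; log2 fold change 0.81, limma adjusted p = 0.666; 0.60 without tamoxifen 1). With each library weighted by its agreement with the fit, the Usp18 log2 fold change was 0.52 (limma adjusted p = 0.0348). That fit gave tamoxifen 1 a weight of 0.0377 and called 782 genes (6.36%). With tamoxifen 1 left out instead, the limma adjusted p of Usp18 was 0.181. Oil and tamoxifen libraries below therefore mean the libraries so labelled. The library labelled tamoxifen 1 stood apart. Mitochondrial genes took 0.00923% of its reads against 1.01% to 1.56% in the other 5, its correlation with the rest over genes had a median of 0.913 against 0.981 to 0.990, and its deviation moved with GC content (Spearman's correlation 0.69 across the tested genes, which are not independent replicates). Differences between the groups are therefore also given without it.

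Receptors of both main signalling types are represented. Kit and Flt3 are receptor tyrosine kinases, which pair up when a dimeric ligand (stem cell factor, FLT3 ligand) binds and then phosphorylate themselves. The other members are type I cytokine receptors, which have no kinase of their own and signal through bound JAK kinases to STAT proteins, mainly STAT5 for the GM-CSF, IL-3 and erythropoietin receptors and STAT3 for the IL-6 and G-CSF receptors. Epor and Csf3r form homodimers. Csf2ra and Il3ra are alpha chains that give specificity for GM-CSF and IL-3 and need a shared beta chain to signal, and Il6ra pairs with gp130. The mouse, unlike the human, has a second beta chain gene: Csf2rb encodes the common beta chain of the GM-CSF, IL-3 and IL-5 receptors, and Csf2rb2 a beta chain used with the IL-3 receptor alone.

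The Csf2rb and Csf2rb2 sequences are shown because the results turn on telling their reads apart. Most type I receptors share a tryptophan-serine-any-tryptophan-serine motif near the membrane. Its codons are in capitals below, 5′ to 3′ on the coding strand, from GENCODE vM21 transcripts (GRCm38), for the beta chains at chr15:78345501-78345545 (Csf2rb, plus strand) and chr15:78287901-78287945 (Csf2rb2, minus strand), and for Epor at chr9:21960703-21960747 (minus strand) as a more distant member.
Csf2rb: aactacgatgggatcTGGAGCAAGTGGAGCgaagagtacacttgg
Csf2rb2: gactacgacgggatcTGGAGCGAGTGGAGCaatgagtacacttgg
Epor: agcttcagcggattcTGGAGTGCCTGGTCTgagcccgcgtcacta

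The same search found 1 such motif in each of Il6ra and Csf3r and none with exactly these residues in the longest coding sequences of Csf2ra and Il3ra. Csf2rb and Csf2rb2 are neighbours on chromosome 15 (GRCm38, 78325752 to 78353847, plus strand, and 78282507 to 78305721, minus strand), 20030 bases apart. Their coding sequences (2688 and 2634 bases) were identical at 92.9% of aligned columns, with 122 substitutions and 70 gap columns, and the longest identical run was 242 bases. Of all 150-base windows of the longest transcripts, 3.47% of those of Csf2rb and 3.59% of those of Csf2rb2 occurred exactly in the other gene, and 10.7% and 11.1% of 75-base windows did. A read from such a window cannot be assigned by sequence, and how the authors' counting treated it is not given in the sources used here, so the split of reads between the genes is uncertain to that extent. The 60 coding bases below hold 13 substitutions, the most of any gap-free stretch of that length, in capitals. They lie within 1 exon at chr15:78338893-78338952 (Csf2rb) and chr15:78294379-78294438 (Csf2rb2).
Csf2rb: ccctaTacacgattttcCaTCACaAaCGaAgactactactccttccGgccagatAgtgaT
Csf2rb2: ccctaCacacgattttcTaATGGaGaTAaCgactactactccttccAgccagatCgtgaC

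The receptor genes fell into an abundant set, a low set and a set at the limit of detection. Levels were compared between genes as normalized counts per kilobase of the union of a gene's exons, in the oil libraries (n = 3, SD). Csf2rb was highest at 2277 ± 373, which ranked 404th of 23684 genes with a read. Csf2rb2 (949 ± 286) and Kit (918 ± 84.1) followed and overlapped in range. Epor stood at 727 ± 26.1, below every Kit value but within the range of Csf2rb2. Csf2ra (47.6 ± 3.57) and Il3ra (11.3 ± 5.54) lay far lower, and their ranges overlapped with no neighbour's. The order of Kit and Csf2rb2 depends on the length used: per kilobase of the longest transcript, Kit (1561 ± 143) lay above Csf2rb2 (949 ± 286). In the tamoxifen libraries, the levels per kilobase of exon union were 2856 ± 409 for Csf2rb, 1920 ± 557 for Csf2rb2, 888 ± 438 for Epor and 876 ± 353 for Kit, and each of these overlapped in range with the next. Epor and Kit changed places without tamoxifen 1, since Kit stood at 869.6 and 1232 and Epor at 645 and 624 in tamoxifen 2 and 3.

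None of the 6 tested receptor genes changed between the groups at an adjusted p under 0.05, and neither did any of the 12298 genes (0.00%) in the limma fit. DESeq2 on the recovered reads, with its own filter (15314 genes with an adjusted p), called 71 genes and none of the receptors, while edgeR and limma voom called 0. At an unadjusted p under 0.05, limma listed 550 genes (4.47%), 397 higher (3.23%) and 153 lower (1.24%) in tamoxifen, of which 1 was a receptor gene, Csf2rb2. Libraries of the groups did not overlap, with tamoxifen higher, for 967 genes (7.86%) and again for 1 receptor, Csf2rb2. With 6 genes tested, 1 call is too few to set against these shares. Without the library labelled tamoxifen 1, 41 genes (0.333%) passed the adjusted threshold, none of them a receptor, and 1488 (12.1%) the unadjusted one, among them Csf2rb2 and Epor. In bulk samples, a change in the proportion of cells of a type and a change in RNA per cell cannot be told apart.

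**Figure D1:**
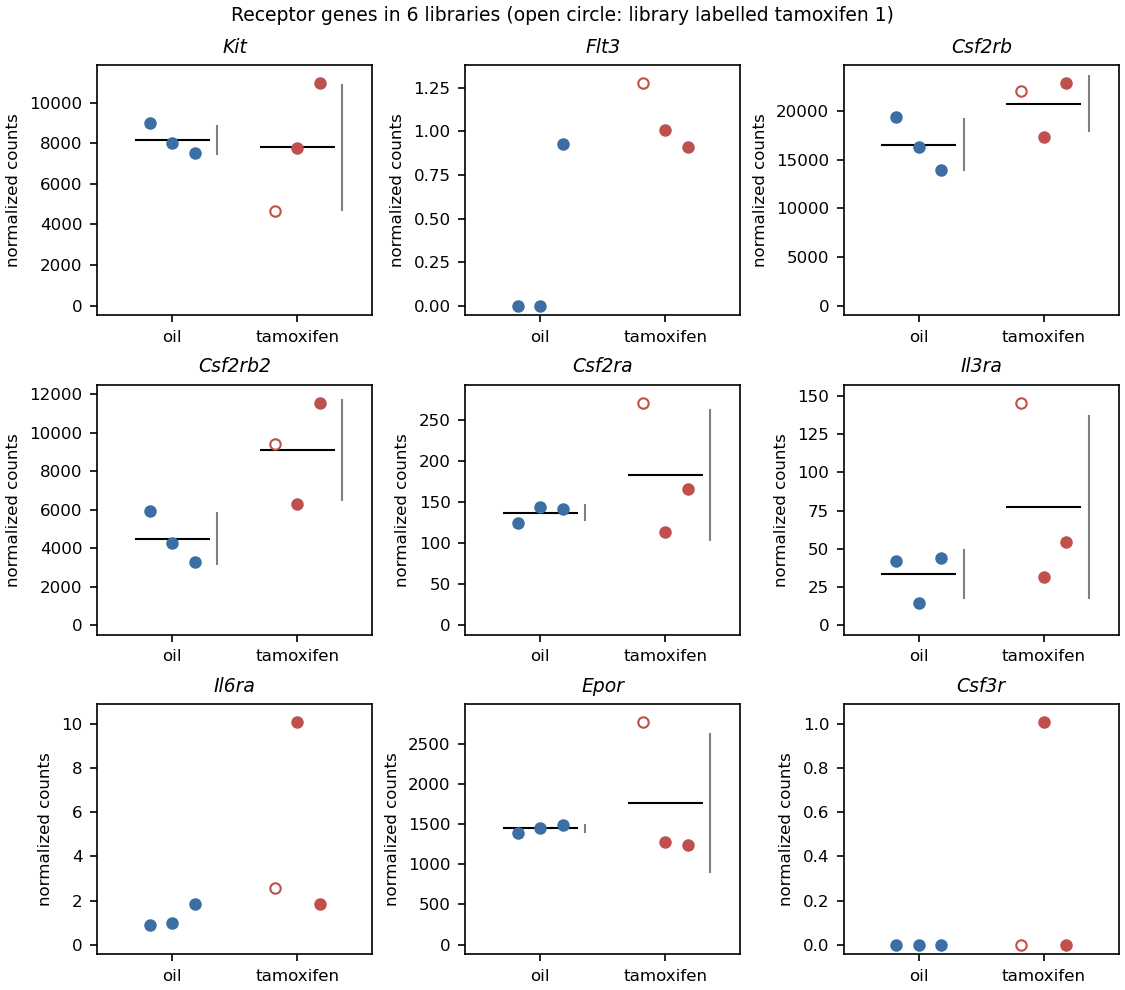
Normalized counts (reads divided by a size factor, y axes from 0) of the 9 receptor genes in the 3 libraries labelled oil and the 3 labelled tamoxifen, with the mean as a line and ± 1 SD as a grey bar except for the 3 genes at the limit of detection. Csf2rb2 is the only tested receptor whose groups do not overlap, and the open circle (tamoxifen 1) lies outside the other 5 libraries for Kit, Csf2ra, Il3ra and Epor.

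Csf2rb2, the beta chain used with the IL-3 receptor, had 5954, 4276 and 3271 normalized counts in oil 1, 2 and 3. It had 9408, 6322 and 11574 in tamoxifen 1, 2 and 3. All 3 of the second group lay above all 3 of the first, although tamoxifen 2 stood only a little above oil 1. The means were 4500.2 ± 1355 and 9101 ± 2639 (SD, n = 3), a ratio of 2.02, and the log2 fold change was 1.02 (standard error, SE, 0.30; 95% interval 0.29 to 1.74; limma unadjusted p = 0.0133, adjusted p = 0.666). An upward log2 fold change of at least this size was found for 299 of the 12298 genes.

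The direction of Csf2rb2 was the same in each of 19 alternative analyses, with log2 fold changes of 0.81 to 1.26 and an unadjusted p under 0.05 in all 19. Without tamoxifen 1 the value was 0.97 (limma adjusted p = 0.192), and after correction for GC content it was 0.89. When each library was weighted by its agreement with the fit, tamoxifen 1 had a weight of 0.0377, and Csf2rb2 was among 782 genes called (6.36%; log2 fold change 1.21, adjusted p = 0.00737, against 0.192 to 0.861 in the other 18 alternatives). The call thus depends on the weighting, and the direction did not.

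Csf2rb, the common beta chain, had 19388, 16338 and 13981 normalized counts in the oil libraries and 22079.7, 17379 and 22895 in the tamoxifen libraries. The groups overlapped, since tamoxifen 2 lay below oil 1. The log2 fold change was 0.33 (SE 0.19, interval -0.12 to 0.78, limma adjusted p = 0.666), and 0.28 without tamoxifen 1 and 0.19 after GC correction. With the reads of both beta chain genes summed, which removes the uncertain split, it was 0.50 with an interval of -0.02 to 1.03 (unadjusted p = 0.0561, adjusted p = 0.666), and 0.36 after GC correction. Without tamoxifen 1 it was 0.46 with an interval of 0.05 to 0.87 (limma unadjusted p = 0.0315, adjusted p = 0.359), and the unadjusted p was 0.0256 without tamoxifen 2 and 0.0395 without oil 1, against 0.130 to 0.189 with each of the other 3 libraries left out in turn.

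The share of Csf2rb2 in the reads of both beta chain genes does not depend on how libraries are scaled to each other. It was 23.5% (Wilson 95% interval 23.0% to 24.0%), 20.7% (20.2% to 21.3%) and 19.0% (18.4% to 19.5%) in oil 1, 2 and 3. In tamoxifen 1, 2 and 3 it was 29.9% (29.3% to 30.5%), 26.7% (26.1% to 27.2%) and 33.6% (33.1% to 34.1%). Every tamoxifen library lay above every oil library, and the intervals, which cover counting error only, were narrower than the spread between mice.

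The mean share was 21.1% ± 2.28 in oil and 30.0% ± 3.45 in tamoxifen (SD, n = 3), a difference of 8.98 percentage points, for which the two-sided exact permutation test gave p = 0.1, the smallest that 3 against 3 can give (0.3 when adjusted over the 3 ratios tested). The difference was 9.06 points without tamoxifen 1. The GC contents of the genes were close (53.9% for Csf2rb and 53.3% for Csf2rb2).

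**Figure D2:**
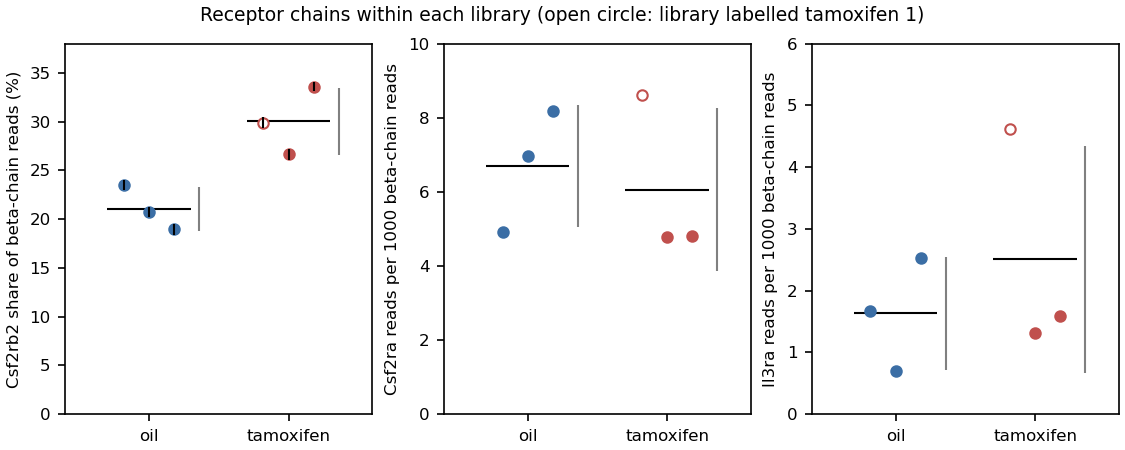
Reads of receptor chains within each library: the Csf2rb2 share of beta-chain reads in percent (with Wilson 95% intervals as short black bars), and Csf2ra and Il3ra reads per 1000 beta-chain reads, by group, with the mean as a line and ± 1 SD as a grey bar. The shares of 26.7% to 33.6% in the tamoxifen libraries lie above the 19.0% to 23.5% of the oil libraries, whereas both alpha chain ratios overlap between groups and are highest in tamoxifen 1 (open circle).

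The alpha chains that pair with these beta chains were scarce. Csf2ra (chromosome 19, 61223957 to 61228429, minus strand) had 125, 144 and 141 normalized counts in the oil libraries and 271, 113 and 166 in the tamoxifen libraries, so that tamoxifen 1 stood highest and tamoxifen 2 lowest of all 6. The log2 fold change was 0.33 (SE 0.34, interval -0.48 to 1.14, limma adjusted p = 0.668) and was 0.0057 without tamoxifen 1, 0.63 without tamoxifen 2 and 0.078 after GC correction. Il3ra (chromosome 14, 14346275 to 14356011, plus strand) had 42.2, 14.5 and 43.6 normalized counts in oil and 146, 31.3 and 54.6 in tamoxifen. Its log2 fold change of 1.05 had an SE of 0.67 and an interval of -0.56 to 2.66 (limma adjusted p = 0.666), and was 0.45 without tamoxifen 1, 0.55 without oil 2 and 0.71 after GC correction. Both values thus rested on single libraries, and the intervals include both no change and changes as large as that of Csf2rb2.

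Per 1000 beta-chain reads, the oil libraries held 4.93, 6.97 and 8.18 reads of Csf2ra and the tamoxifen libraries 8.60, 4.77 and 4.80. The log2 ratio differed by -0.17 (exact permutation p = 0.8, two-sided, adjusted p = 0.8). Without tamoxifen 1 it differed by -0.45 and the groups did not overlap, tamoxifen lower (exact permutation p = 0.2, the smallest that 3 against 2 can give), and without oil 3 it differed by -0.010. For Il3ra there were 1.67, 0.702 and 2.53 reads in oil and 4.63, 1.32 and 1.58 in tamoxifen, a log2 difference of 0.57 (exact permutation p = 0.6, adjusted p = 0.8) that was 0.011 without tamoxifen 1 and 0.054 without oil 2. Over all 6 libraries both ratios overlapped between the groups. With Csf2rb alone in the denominator, the GM-CSF receptor ratio differed by 0.0047, so no direction can be given for it.

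Kit, the stem cell factor receptor on whose protein the cells were sorted, lies on chromosome 5 (75574916 to 75656722, plus strand). It had 8990.5, 8043 and 7512 normalized counts in the oil libraries. In the tamoxifen libraries it had 4687, 7749 and 10976. The oil libraries lay close together, and the tamoxifen libraries held both the lowest and the highest value of the 6. The means were 8182 ± 749 and 7804 ± 3145 (SD, n = 3). On the log2 scale the difference was -0.15 (SE 0.31, interval -0.89 to 0.59, limma adjusted p = 0.810). Without tamoxifen 1 the sign turned, to 0.18 (adjusted p = 0.650), and after GC correction of all 6 libraries it was -0.098. Because the gate required c-Kit protein in both groups, these values describe transcript levels among cells already selected as c-Kit+.

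Flt3 (chromosome 5, 147330741 to 147400489, minus strand), the other receptor tyrosine kinase and a marker of multipotent and lymphoid-primed progenitors, was at the limit of detection, with 0, 0 and 1 reads in the oil libraries and 1 read in each tamoxifen library. A count of 0 allows up to 3 reads per library, so no order can be read from these values.

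Epor (chromosome 9, 21958897 to 21963506, minus strand), the erythropoietin receptor, had 1390.5, 1455 and 1493 normalized counts in the oil libraries and 2772, 1283 and 1241 in the tamoxifen libraries. Tamoxifen 1 stood far above the other 5, and tamoxifen 2 and 3 lay below all oil libraries. The log2 fold change over all 6 was 0.18 (SE 0.32, interval -0.59 to 0.95, limma adjusted p = 0.777). Without tamoxifen 1 it was -0.20 (SE 0.08, limma unadjusted p = 0.0355, adjusted p = 0.373), and after GC correction of all 6 it was -0.12. In the 5 libraries, groups without overlap were found for 1548 genes with tamoxifen higher (12.6%), Csf2rb2 among them, and for 2064 with tamoxifen lower (16.8%), Epor among them.

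**Figure D3:**
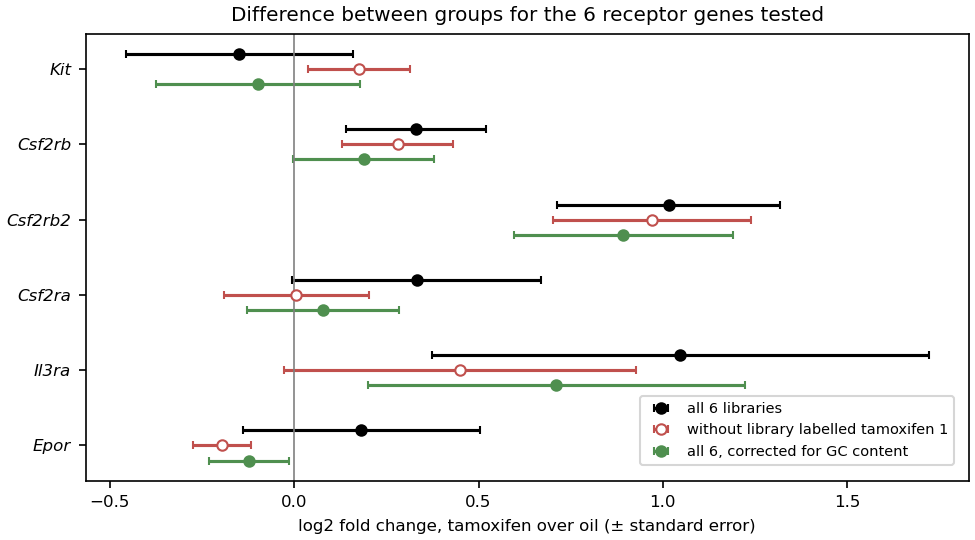
Log2 fold change of the 6 tested receptor genes, tamoxifen over oil, with ± 1 standard error from limma, for all 6 libraries (black), without the library labelled tamoxifen 1 (open red) and with all 6 corrected for GC content (green). Csf2rb2 stays between 0.89 and 1.02, Epor moves from 0.18 to -0.20 and Kit from -0.15 to 0.18 when the library is left out.

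Il6ra (chromosome 3, 89864059 to 89913196, minus strand), the specific chain of the IL-6 receptor, had 1, 1 and 2 reads in the oil libraries and 2, 10 and 2 in the tamoxifen libraries. Only tamoxifen 2 held more than 3 reads. Csf3r (chromosome 4, 126024550 to 126044440, plus strand), the G-CSF receptor that marks the granulocyte lineage, had a single read in tamoxifen 2 and 0 in the other 5 libraries. A difference between groups was not detectable at this depth for either gene.

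Receptor genes of higher GC content mostly lay higher in tamoxifen 1 relative to the other libraries. Its difference from the mean of the other 5, on the log2(value + 1) scale, was -0.87 for Kit (48.5% GC), 0.31 for Csf2rb (53.9%), 0.72 for Csf2rb2 (53.3%), 0.98 for Csf2ra (57.8%), 1.02 for Epor (59.6%) and 2.06 for Il3ra (60.7%). The tested genes had a median GC content of 49.7%. The part of GC content in the receptor values of this library was not tested.

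**Figure D4:**
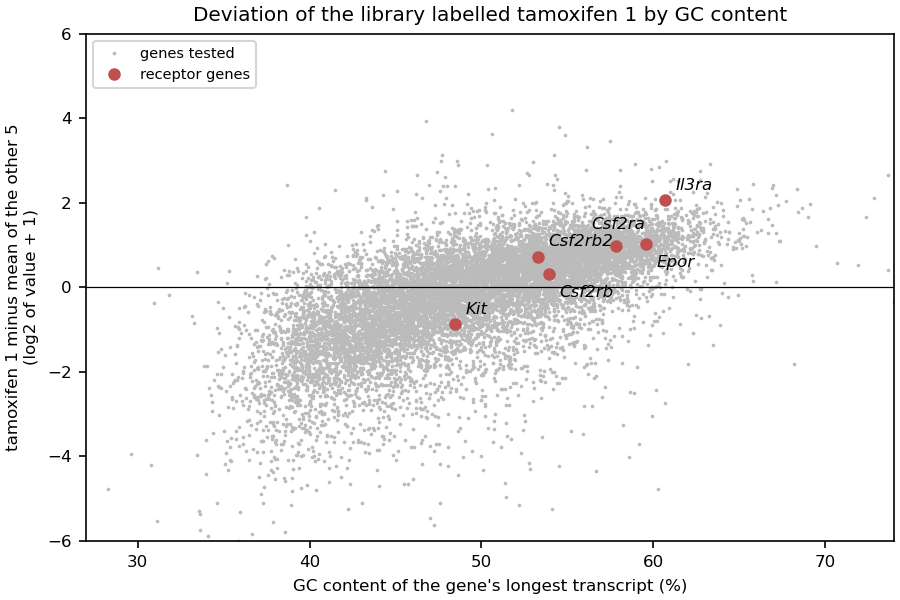
Difference of the library labelled tamoxifen 1 from the mean of the other 5 libraries (log2 of value + 1) against the GC content of each gene's longest transcript, for 12134 tested genes with a GC value (grey; 17 fall outside the axes) and 6 receptor genes (red). Genes of higher GC content lie higher, and the receptors run from Kit at -0.87 to Il3ra at 2.06.

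Markers of other cell types were read as summed normalized counts, for the lists as a whole. Macrophage markers lay higher in tamoxifen without overlap (84 to 203 against 205 to 300), with 1 of 10 genes at 0 in all libraries and Cd68 and C1qc the most abundant, and all 7 tested members had a positive log2 fold change (median 1.35, and 1.18 without tamoxifen 1). Neutrophil markers did too (15.3 to 28.0 against 40.0 to 70.7), with Mmp8 and S100a8 the most abundant. Of these, 1 of 9 was at 0 in all libraries, and 3 of 9 had at most 3 reads in each. The 1 neutrophil marker tested, however, had a log2 fold change of -1.47 (-0.30 without tamoxifen 1). Dendritic cell markers summed to 1708 to 2084 against 2137 to 5446 and also did not overlap (2 of 8 at 0, Bst2 and Zbtb46 highest). Their sum was mostly Bst2, a gene that interferon induces, and 5 of the 8 genes had at most 3 reads in every library. Megakaryocyte markers (2 of 7 at 0, Itga2b and Itgb3 highest) summed to 199 to 240.7 against 241.5 to 679, so the groups barely separated. Of the 2 megakaryocyte markers tested, 0 had groups without overlap. Over the 3 dendritic cell markers that could be tested, the median was 0.31 on the log2 scale, and 0.08 without tamoxifen 1. The Lin- gate of the sort was set to remove mature cells that carry lineage markers. The part of these cell types in the Csf2rb2 result was not tested.

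Markers of mast cells and basophils, erythroid cells and early progenitors, lineages that use these receptors, were abundant in both groups and their sums overlapped. Mast cell and basophil markers, led by Hdc and Ms4a2, summed to 61334 to 67553 in oil and 51888, 68521 and 86445 in tamoxifen 1, 2 and 3, so that they were lowest in tamoxifen 1 and above every oil library in the other 2. The median log2 fold change of the 10 mast cell and basophil markers was 0.14, with 3 higher and 0 lower at the unadjusted limit (3.23% and 1.24% of all tested genes). Without tamoxifen 1 the median was 0.51, 2 passed the adjusted threshold (0.333% of all tested genes) and at the unadjusted limit (12.1% of all tested genes) 5 were higher and 1 lower. Erythroid markers, led by Hba-a1 and Hbb-bs, summed to 60369 to 82391 in oil and 65662 to 96367 in tamoxifen. Early progenitor markers summed to 15318 to 19000.4 and 16488 to 17011. Most of that sum came from Gata2 and Myb (means of 10524 and 5145 over all libraries). In this list 2 of 10 genes had at most 3 reads in every library. B cell markers (4.64 to 9.65 against 6.06 to 24.3; 3 of 6 at 0; Cd79b and Cd79a highest) were near the limit of detection. T and NK cell markers (343 to 392 against 157 to 308; 4 of 8 at 0) came almost wholly from Cd247, with Cd4 next, and were lower in every tamoxifen library than in any oil library. The part of the mast cell and basophil markers in the receptor values was not tested.

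Most ligands of these receptors were at the limit of detection in the leukemia cells. Of 12 ligand genes, 2 were tested, Flt3l and Csf1. Il3 and Epo had no read in any library, which allows up to 3 reads per library, Csf3 had 1 read in all, Csf2 (GM-CSF) 7, Kitl (stem cell factor) 10 and Il6 40. Flt3l, the FLT3 ligand, had 158, 168 and 153 normalized counts in oil and 39.6, 161 and 149 in tamoxifen, low only in tamoxifen 1 (log2 fold change -0.69, and -0.04 without that library; limma adjusted p = 0.666 and 0.938). Csf1, the macrophage growth factor, had 7.19, 2.89 and 7.43 in oil and 52.4, 11.1 and 17.3 in tamoxifen (log2 fold change 1.82, SE 0.65, limma adjusted p = 0.666; 1.21 without tamoxifen 1).

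Other cytokine and growth factor receptors were read for comparison. Of 21 genes, 10 were tested, 0 passed the adjusted threshold, while at the unadjusted limit 3 were higher and 0 lower (3.23% and 1.24% of all tested genes). Their median log2 fold change was 0.28, against -0.02 for all tested genes, and 0.10 without tamoxifen 1. Il10ra, the ligand-binding chain of the IL-10 receptor, had 365, 227 and 154 normalized counts in oil and 615, 366 and 857 in tamoxifen (log2 fold change 1.30, SE 0.42, limma adjusted p = 0.666; 1.26 without tamoxifen 1). Il4ra, of the IL-4 receptor, had 795, 794 and 712 against 1899, 956 and 1159 (log2 fold change 0.74, limma adjusted p = 0.666; 0.46 without tamoxifen 1). The libraries of 3 of the 10 genes, these 2 among them, did not overlap between groups, tamoxifen higher (7.86% of all tested genes).

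Downstream of the receptors, the feedback inhibitors Socs1 and Cish had higher values in each tamoxifen library than in any oil library, as 7.86% of all tested genes did, short of the adjusted threshold. The libraries of 1 other negative regulator did not overlap in the opposite direction, as for 1192 of the 12298 tested genes. Of 11 negative regulators, 10 were tested. At the unadjusted limit 2 were higher and 0 lower, beside 3.23% and 1.24% of all tested genes, and the median log2 fold change was 0.16 (0.07 without tamoxifen 1). Socs1, an inhibitor of JAK kinases that cytokines and interferons both induce, had 1002, 921 and 1082 normalized counts in oil and 3328, 1439.7 and 1619 in tamoxifen. Its log2 fold change of 0.99 (SE 0.32, limma adjusted p = 0.666) became 0.61 without tamoxifen 1, with an adjusted p of 0.0426, the only gene of the list called there, where 0.333% of all tested genes were. Cish, another feedback inhibitor, had 415, 466 and 440.1 against 1002, 558 and 653 (log2 fold change 0.70, limma adjusted p = 0.666; 0.46 and adjusted p = 0.181 without tamoxifen 1). Sh2b3, an adaptor that restrains JAK2, had 732, 837 and 758 against 1458, 813 and 822, and overlapped (log2 fold change 0.36, and 0.08 without tamoxifen 1).

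Of 14 STAT5 target genes, which include Socs1 and Cish, 13 were tested, 11 had a positive log2 fold change and 2 a negative one, where 48.4% of all tested genes had a positive one. At the unadjusted limit 2 were higher and 0 lower, and the libraries of 4 did not overlap, tamoxifen higher (3.23%, 1.24% and 7.86% of all tested genes). Their median was 0.24 over all 6 libraries and 0.10 without tamoxifen 1, against -0.02 for all tested genes in either case. Pim1, a survival kinase, had 2669.6, 2401 and 3172 normalized counts in oil and 4637, 3171 and 3518 in tamoxifen (log2 fold change 0.45, limma adjusted p = 0.666; 0.29 without tamoxifen 1). The groups overlapped only at oil 3 and tamoxifen 2, which were equal to within 1 count.

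Of 27 signalling genes common to these receptors, 26 were tested and 0 passed the adjusted threshold. At the unadjusted limit 2 were higher and 0 lower (3.23% and 1.24% of all tested genes). The libraries of 4 did not overlap with tamoxifen higher (7.86% of all tested genes). Those of 1 did not overlap with tamoxifen lower, as for 1192 of the 12298 tested genes. The median log2 fold change of the 26 was 0.04 (0.02 without tamoxifen 1). Plcg2, a phospholipase, had 77.2, 35.7 and 55.7 normalized counts in oil and 138, 80.8 and 116 in tamoxifen (log2 fold change 1.01, limma adjusted p = 0.666; 0.84 without tamoxifen 1). The kinase Syk had 372, 322 and 277 against 475, 401 and 520.2 (log2 fold change 0.53, limma adjusted p = 0.666; 0.51 without tamoxifen 1). Plcg1 had 509, 479 and 416 against 751, 516 and 702 (log2 fold change 0.47, limma adjusted p = 0.666; 0.37 without tamoxifen 1).

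Genes whose pattern over the 6 libraries was most like that of a receptor were found by the root mean square difference of log2(value + 1) after each gene's mean was subtracted. For Kit, whose own SD over the libraries was 0.41 on that scale, they were Zfp14 (0.061), Fam198b (0.064) and Scaper (0.072). Each shared its low value in tamoxifen 1 and its high value in tamoxifen 3. For Csf2rb (SD 0.27), they were 4833445I07Rik (0.057), Tespa1 (0.059) and Ndst1 (0.071), all of which were lowest in oil 3.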

How the data were processed

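Per the labels and the study's methods, RNA from the sorted cells was extracted with Trizol and sequenced as paired-end reads, and the authors used STAR and DESeq2 on mm10. The annotation, strand setting and filters are not given in the sources used here, and the kit named for the libraries is one for DNA tagmentation. The values the authors deposited are a normalized signal: counts of reads for a gene, over a size factor for its library. The smallest step in a library divided 100% of its nonzero values evenly (tolerance 0.01 reads), which gave back the counts of whole reads. In tamoxifen 2 the step was 1.01. Of 55450 rows, 1832 had no gene name, held 0.0400% to 0.0614% of the reads and were left out. The reads carry no molecular identifiers and are not independent molecules, so intervals and limits cover counting error only. No 2 libraries of a group agreed within sampling noise (chi-square per degree of freedom 10.3 or more).

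Groups were compared with limma (version 3.58.1, R 4.3.3; lmFit and eBayes with a trend) on log2(value + 1) over the 12298 genes that reached 10 in at least 3 libraries, two-sided, with Benjamini-Hochberg adjustment over all of them and a threshold of 0.05. This scale understates the change of low genes. Many genes have the same adjusted p (0.666), as this adjustment can give. Alternatives were DESeq2 (1.42.0), edgeR (4.0.16) and limma voom on recovered reads, TMM and upper-quartile scaling, pseudocounts of 0.5 and 5, no filter, 1 CPM in 3 libraries, GC correction (loess, span 0.3), a replicate block, library weights and each library left out. Ratios within libraries were compared by exact permutation (scipy 1.17.1). Coding sequences were aligned globally with Biopython 1.88, and coordinates and lengths come from GENCODE vM21 (GRCm38), matched by symbol.

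The receptor genes were listed by name, and they and the gene lists were chosen with earlier results of these data known. Named genes are the receptors, Usp18, the 3 members of each list with the smallest p, the 2 most abundant markers of each cell type, and the 3 genes most like Kit and Csf2rb. The result of 1 gene that this rule selects is not reported here. On simulated data for 12298 genes, with 200 changed by 2 on the log2 scale, limma recovered 99.5% and called 14 unchanged genes. The simulation gave all genes the same dispersion (0.05) and held no library that deviated as tamoxifen 1 did. It therefore does not give the power of the comparison in the real libraries.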

Additional observations from a re-analysis of the deposited data

How the results depend on the processing

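Csf2rb2, Csf2rb, Csf2ra and Il3ra kept their direction in all 19 alternatives. Kit turned to 0.18 without tamoxifen 1 and 0.31 with library weights, and lay between -0.44 and 0.18 with each library left out. Epor, between -0.20 and 0.38 with each library left out, turned to -0.20 without tamoxifen 1 and with library weights and to -0.12 under GC correction, with or without the replicate block. The count of genes past the adjusted threshold went from 0 to 71 with DESeq2, which also tested other genes (15314 with an adjusted p, against 12298), 2 with GC correction, 782 with library weights and between 0 and 41 with each library left out, and that of receptors from 0 to 1 with library weights (Csf2rb2). At an unadjusted p under 0.05, 550 genes became 886 with DESeq2 and no minimum of 10, 1111 with no filter, 2872 with library weights and 225 to 1488 with each library left out. The receptors at that limit went from 1 to 2 with the replicate block (Csf2rb2 and Il3ra), where 426 of 12298 genes were listed. With library weights there were 4 (Kit, Csf2rb, Csf2rb2 and Epor), where 2872 of 12298 genes were listed. With each library left out there were 1 to 2. Receptors without overlap went from 1 to 2 without tamoxifen 1, an alternative chosen after seeing the data. The GM-CSF receptor ratio turned from -0.17 to 0.0047 with Csf2rb alone as denominator, and the cause was not tested.

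Same-numbered libraries showed no clear tendency to deviate together (correlations of -0.02, 0.06 and -0.15), and only oil 2 was most like its own number. With 3 libraries per group and tamoxifen 1 standing apart, this check cannot exclude a pairing by number. The replicate block moved the genes at an unadjusted p under 0.05 from 550 to 426. As differences within numbers, the Csf2rb2 share differed by 8.98 points (exact sign-flip p = 0.25, the smallest that 3 pairs can give). With each library left out, the share differed by 7.21 to 10.7 points, and the log2 ratios by -0.45 to -0.01 for Csf2ra and 0.01 to 0.98 for Il3ra. Depth limits Flt3, Il6ra and Csf3r, with at most 3 reads in nearly every library.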
